A study of Mus musculus with 35 samples.

Results

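Binding regions in 5′ UTRs were the stretches of mouse mRNA ahead of the start codon in which SRSF1 to SRSF7 or NXF1 cross-linked. Clusters of cross-link sites of these 8 proteins were merged where they lay within 30 nt of each other on the same strand, which gave 388969 regions. A region was kept where its midpoint fell in the 5′ UTR of the representative transcript of a gene, the one with the longest coding sequence (CDS). This left 12753 regions, 3.28% of all regions, in 7905 genes. Of them, 40 lay in the 5′ UTRs of 2 genes and 78 also lay in the CDS or 3′ UTR of another representative transcript. Other transcripts of the same gene were not considered, so a region may be coding or intronic in some of them.

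The 5′ UTR runs from the capped end of an mRNA to the start codon and is the stretch that the small ribosomal subunit scans before translation begins. It often holds the first exon and the first 5′ splice site, short upstream open reading frames and, in some mRNAs, structured elements such as the iron-responsive element of ferritin mRNAs. SR proteins are RNA-binding splicing factors with arginine- and serine-rich domains, several of which shuttle to the cytoplasm, and NXF1 is the receptor that takes mRNA through the nuclear pore.

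The study asked whether SR proteins act as adaptors that bring NXF1 to mRNA, and mapped RNA contacts by iCLIP, in which ultraviolet light (254 nm) joins protein to RNA in living cells and reverse transcription stops beside the joined base. All libraries came from P19 mouse embryonal carcinoma cells, a line with features of early embryo cells, each a stable clonal line with a GFP-tagged gene on a bacterial artificial chromosome, selected for GFP expression, and all were purified with the same anti-GFP antibody. There were 3 libraries of NXF1-GFP, 4 of SRSF1-GFP, 5 of SRSF2-GFP, 3 of SRSF3-GFP, 3 of SRSF4-GFP, 4 of SRSF5-GFP, 3 of SRSF6-GFP and 6 of SRSF7-GFP, and 4 control samples of GFP with a nuclear localization signal (GFP-NLS) that were deposited as 1 pooled file. The study reports that NXF1-GFP lowered the level of endogenous NXF1 protein. The study calls the libraries biological replicates, the labels do not tell if separate cultures were used. The p-values cover the spread between libraries, which may be technical, and no more.

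A tag is a unique cDNA at a cross-link position that passed the authors' significance threshold, so a value of 0 means that no position of a region was listed in that library. The 31 libraries held 13038 to 4459523 listed tags (median 237488), against 21880 in the control pool. Levels are given as CPM, tags scaled to 1000000 listed tags in each library, and are not corrected for how abundant an mRNA is, so more transcripts of a gene and more binding per transcript cannot be told apart. Of the 31 file headers, 29 name the protein of the label, while those of the libraries labelled SRSF2 replicates 2 and 5 name SRSF1. These 2 libraries hold most of the SRSF2 tags, and results that change without them are given both ways. Of 16 pluripotency genes, 15 had tags and 8 had them in at least 16 libraries (Dppa5a had none, Zfp42 and Esrrb 4 and 3 in all), against 6 and 0 of 17 markers of differentiated cells. Libraries of SRSF2, SRSF5, SRSF6 and SRSF7 replicates 1 to 3 were run in 2013 and the others in 2014, with NXF1 and SRSF7 replicates 4 to 6 on 1 lane.

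Sequences around the strongest cross-link position of a few regions show what was bound. Each is 29 nt long, on the transcript strand of mm9 (NCBIM37), with that position as base 15, and is shown because a result below turns on it. In the first 6, which were all called higher with SRSF3, capitals mark CNTC, where N is any base. This motif was present in 42.2% of 29-nt windows at the middle of 5′ UTR regions, against 40.5% over all regions. The strongest position of the Rpl28 region lay outside the exons of its representative transcript.
Gpc4 (chrX:49518069-49518097, minus strand): cCTTCactaccaaCTTCaactccccggtt
Rpl28 (chr7:4744558-4744586, plus strand): ctcgtgtctctctttcCGTCtccggccgc
Rpl32 (chr6:115758749-115758777, minus strand): ccgccgccgCCTCTTCCTTCTTCCTCggc
Rps24 (chr14:25309928-25309956, plus strand): cagtgagcggtCCTCttttCCTCCTCtcc
Ftl1 (chr7:52715047-52715075, minus strand): tctCCTCgctgcCTTCagctcctaggacc
Tubb5 (chr17:35975094-35975122, minus strand): tccggtcCATCctttcagtctgagaccgg
In the next, called higher with SRSF1, capitals mark GGA, which 49.2% of 5′ UTR windows held, against 36.4% over all regions.
Ranbp1 (chr16:18248753-18248781, minus strand): cGGAgGGAagagcGGAcgggcgGGAgcgc
The last 4 carry no capitals, since no motif is counted in them. They are the 2 regions with the highest mean CPM (Grcc10 and Taf1c) and the regions that set NXF1 and SRSF7 apart (Ddx39b and Gemin6).
Grcc10 (chr6:124691264-124691292, minus strand): tcttttagaatttgtctagcaggttttct
Taf1c (chr8:122129039-122129067, minus strand): ggcactctggctcctttgcggccccgggg
Ddx39b (chr17:35379608-35379636, plus strand): aagagaatagcggcagccacatgatgttt
Gemin6 (chr17:80623987-80624015, plus strand): cccgtggagagtcatctagaaagagtagg

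SR protein contacts were spread along the whole 5′ UTR. The regions were 1 to 924 nt wide with a median of 28 nt, against 16 nt over all regions. Of the 7905 genes, which were 40.9% of the 19338 representative transcripts with a 5′ UTR, 5029 had a single region and 207 had 5 or more. The most, 14, lay in Nup98, a component of the nuclear pore. Genes with a region had a median 5′ UTR of 205 nt, against 110 nt for the 11433 without one. In 11244 regions the position with most tags lay in the spliced 5′ UTR, at a median of 115 nt from the transcript start and 108 nt from the start codon, and in 79.9% of them it was in the first exon. When the length of the 5′ UTR was split into 10 equal stretches, each held 8.92% to 11.3% of these positions. Of the 8769 regions in the first exon of spliced transcripts, 16% had their strongest position within 50 nt of the first 5′ splice site.

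**Figure D1:**
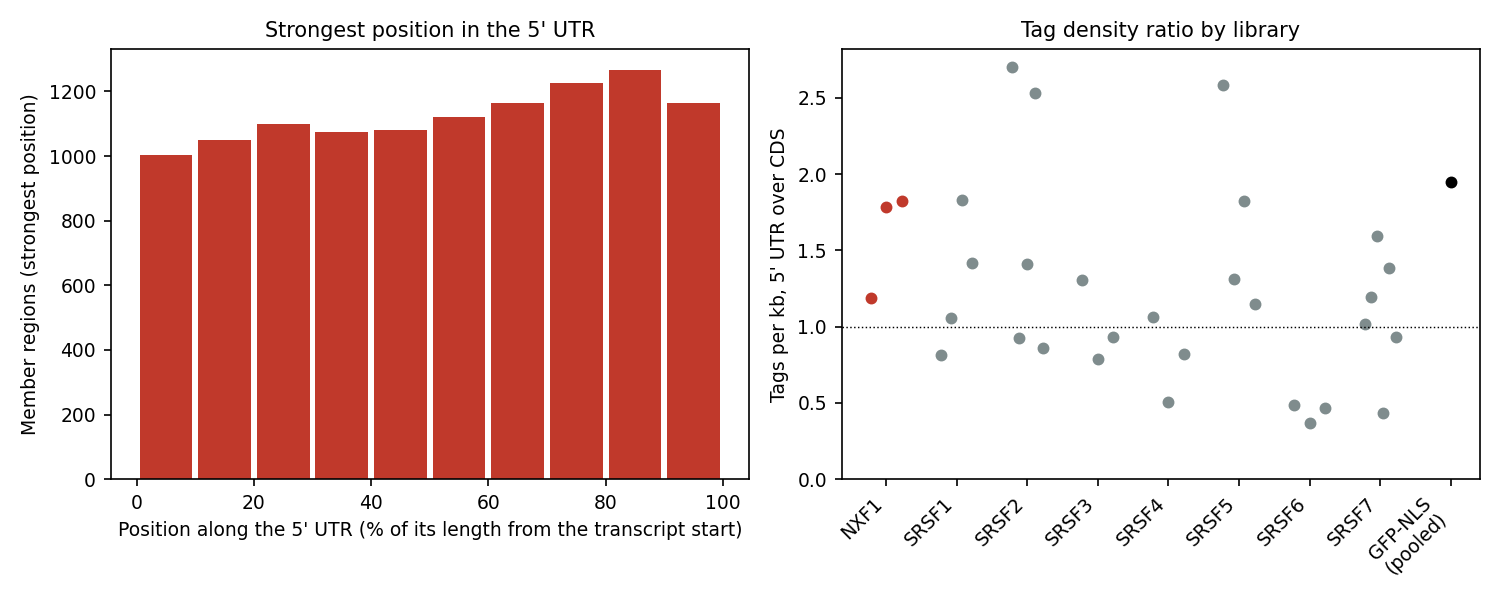
Left, number of 5′ UTR regions (vertical axis) by the position of their strongest site along the 5′ UTR, in percent of its length from the transcript start. Right, tags per kb in 5′ UTR regions over tags per kb in CDS regions for each library (points), with the pooled GFP-NLS control as 1 black point and equal density as a dotted line. The 10 stretches hold 1003 to 1267 regions, and the SRSF6 libraries lie between 0.367 and 0.488.

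The bound sequences were rich in G and C and poor in start triplets. The 31-nt windows at the middle of 5′ UTR regions had a median GC content of 61.3%, against 51.6% in CDS and 41.9% in 3′ UTR regions. An ATG was present in 20.7% of these windows, against 42.3% in CDS and 37.3% in 3′ UTR regions. Over their whole width, 3106 regions (24.4%) held an ATG. Upstream ATGs were present in the 5′ UTRs of 55.2% of genes with a region and 45.1% of genes without one.

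Relative to their length, 5′ UTRs held 3.05 regions per kb, against 3.43 in the CDS and 1.86 in 3′ UTRs, and 176 tags per kb over all libraries, against 262 and 78.4. This balance differed between proteins and also between libraries of 1 protein. The density of tags in 5′ UTR over CDS regions averaged 1.60 ± 0.36 for NXF1 (SD, n = 3), 1.28 ± 0.44 for SRSF1 (n = 4), 1.69 ± 0.88 for SRSF2 (n = 5), 1.01 ± 0.26 for SRSF3 (n = 3) and 0.80 ± 0.28 for SRSF4 (n = 3). It averaged 1.72 ± 0.65 for SRSF5 (n = 4), 0.44 ± 0.07 for SRSF6 (n = 3) and 1.09 ± 0.40 for SRSF7 (n = 6), and was 1.95 in the control pool. SRSF6 was thus the protein with the fewest 5′ UTR tags per CDS tag, and its 3 libraries did not overlap those of NXF1, SRSF1, SRSF2, SRSF3, SRSF4 or SRSF5, while 1 SRSF7 library lay among them. This ratio was given as a description, with no test of its own. Within a protein, the deeper libraries mostly had the lower ratio. SRSF7 replicate 4, with 4459523 tags, had 0.44, against 1.02 to 1.59 in SRSF7 replicates 1, 2, 3 and 5, with at most 54936. The SRSF6 libraries held 1155384 tags or more and the NXF1 libraries at most 237488. How much of the differences goes with depth was not tested.

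Many regions held tags of 1 protein only, in counts that are not scaled to depth. The 12753 regions held 736151 tags over 31 libraries, with a median of 9 per region. Tags of only 1 protein were found in 3719 regions, tags of all 8 in 427, and no listed tag of any single library in 902. Pooled clusters of NXF1 overlapped 1348 regions (10.6%), against 4268 for SRSF4 (33.5%) to 6412 for SRSF2 (50.3%) among the SR proteins. NXF1 also had the fewest tags in them, 6562, against 32159 for SRSF5 to 167515 for SRSF3. Neither these tags nor the overlaps are scaled to depth, which was lowest on average for NXF1. Its libraries had a mean of 162186 listed tags, against 332538 for SRSF5 and 1503750 for SRSF3. By their headers, the cluster files of SRSF2, SRSF3 and SRSF6 come from 1 library each, that of SRSF2 from the library labelled replicate 2. The control pool had 172 tags in 28 regions, of which 106 lay in Grcc10 and at most 4 in any other.

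The 10 regions with the highest mean CPM over the 8 proteins lay in Grcc10, Taf1c, Eef1a1, Npm1, Tubb5, Gnb2l1, Pabpc1, Snrpn, Jarid2 and Peg10. The Grcc10 region (chr6:124691268-124691313, minus strand) shares 37 nt with the annotated U7 snRNA gene, the RNA that guides 3′ end processing of histone mRNAs, so tags of the mRNA and of that RNA cannot be told apart. The strongest position of the region and the 29 nt shown above lie inside the U7 gene (chr6:124691243-124691304). The Grcc10 region had 1505 tags at that position. It had 2758, 4474 and 5096 CPM in the NXF1 libraries, against 0 to 8725 CPM in the 28 SR protein libraries. It took 19.3%, 34.0% and 42.0% of all 5′ UTR tags of NXF1 replicates 1 to 3, against 61.6% of the 172 control tags (95% exact binomial interval 53.9% to 68.9%, for counting error only). In the SR protein libraries it took 0 to 41.0% of 5′ UTR tags, with 41.0% in SRSF2 replicate 1, 29%, 26.5% and 24.2% in SRSF7 replicates 1, 3 and 5, and 25% in SRSF5 replicate 1, so a large share was found in several SR protein libraries too.

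Of the other leading regions, those of Eef1a1, Tubb5 and Pabpc1 are described with SRSF3. The nucleophosmin (Npm1) region had 232, 235 and 202 CPM in NXF1 libraries, against a median of 411 CPM in SR protein libraries (0 to 828). That of Gnb2l1, the ribosomal scaffold RACK1, had 185, 221 and 184 CPM in NXF1 libraries, against a median of 154 CPM (0 to 497). Snrpn, an imprinted gene for a spliceosomal protein, had 147, 114 and 27.6 CPM in NXF1 libraries, against a median of 155 CPM (0 to 466). In these 3 genes the NXF1 libraries lay inside the range of the SR protein libraries. Jarid2, a partner of the Polycomb complex PRC2, and Peg10, an imprinted gene derived from a retrotransposon, averaged 133 and 119 CPM over the 8 proteins. The strongest position of the Gnb2l1 region lay inside the CDS. Whether that of the Snrpn region lies in an upstream open reading frame was not tested.

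The first comparison asked how much of each protein's binding fell in 5′ UTRs. Of the tags off the mitochondrial genome, 5′ UTR regions held 1.51%, 1.38% and 1.29% in the NXF1 libraries, against 0.71% to 5.38% in the SR protein libraries. The means were 1.39% ± 0.12 for NXF1 (SD, n = 3) and 2.59% ± 1.20 for the SR proteins (n = 28), which did not differ beyond the spread of the libraries (exact permutation test, two-sided, p = 0.0979, adjusted p = 0.392 over 8 comparisons). SRSF3 had the highest mean of the SR proteins. Its libraries had 4.64%, 3.26% and 4.23%, a mean of 4.04% ± 0.71 (n = 3), against 2.42% ± 1.14 in the other SR libraries (n = 25), with p = 0.0235 and an adjusted p of 0.188 in the same exact permutation test. Without SRSF7 replicate 6, which had the highest share of all at 5.38%, the SRSF3 difference passed with an adjusted p of 0.0383 by that exact permutation test. The other 6 proteins had adjusted p-values of 0.422 to 0.884. In the control pool the share was 0.80% (95% exact binomial interval 0.68% to 0.92%).

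The order of the proteins depended on what the tags were counted against. Of the tags in exons (5′ UTR, CDS and 3′ UTR regions), 5′ UTR regions held 10.7% for NXF1 and 10.0% for the SR proteins, 8.49% for SRSF3 and 10.2% for the other SR proteins, and 4.35% for SRSF6 against 10.7%, the last with an adjusted p of 0.0708 (exact permutation test). The differences of NXF1 and SRSF3 thus changed sign. Without the Grcc10 and Taf1c regions, the 5′ UTR share of all tags was 0.95% ± 0.25 for NXF1, against 2.37% ± 1.27 for the SR proteins (exact permutation p = 0.0654, adjusted p = 0.262), and 4.0% ± 0.69 for SRSF3, against 2.17% ± 1.19 (exact permutation p = 0.0165, adjusted p = 0.132). Within the runs of 2014, the shares were 1.39% for NXF1 and 2.91% for the 13 SR libraries (exact permutation p = 0.0429, adjusted p = 0.131). On the lane that held them, the NXF1 libraries (1.29% to 1.51%) lay below SRSF7 replicates 4 to 6 (2.23% to 5.38%, mean 3.29% ± 1.81, n = 3), with p = 0.1, the smallest that the two-sided exact permutation test of 3 against 3 allows. The exon totals, the removal of the 2 regions, the lane and the split by run year were chosen after seeing the data.

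**Figure D2:**
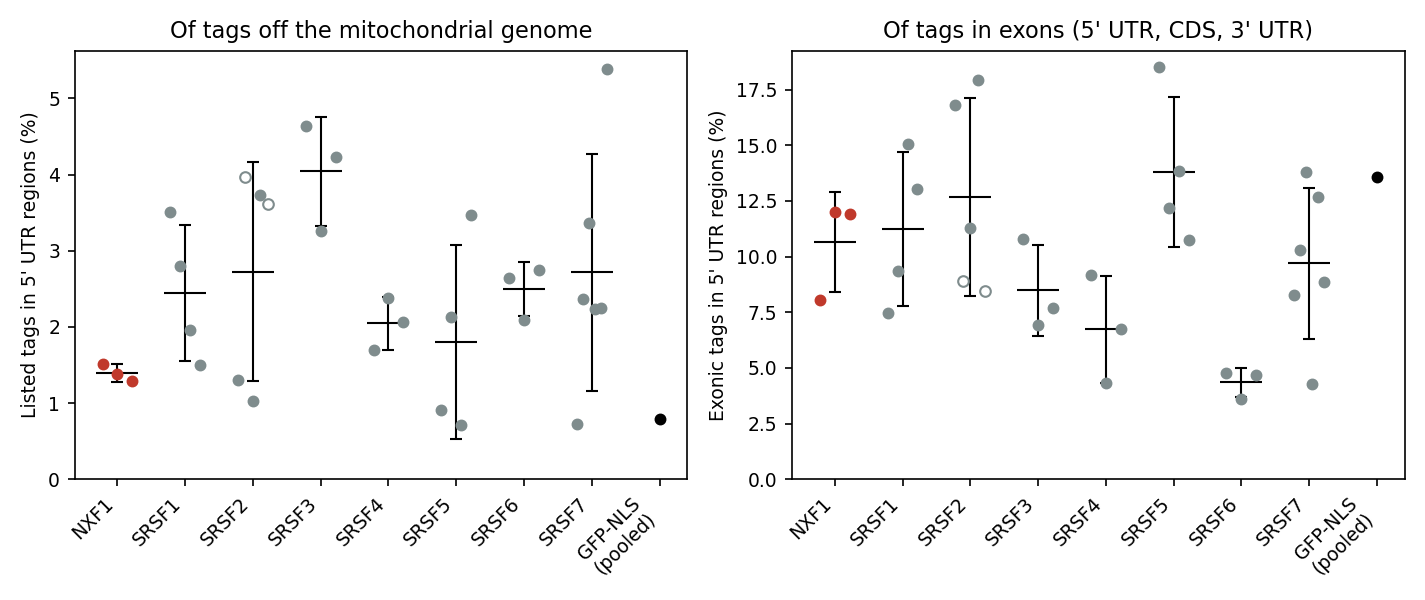
Share of tags in 5′ UTR regions for each library (points), in percent of all tags off the mitochondrial genome (left) and of tags in exons (right), with the mean and SD of each protein as bars. Open circles are the libraries labelled SRSF2 replicates 2 and 5, and the black point is the pooled GFP-NLS control without replicates. NXF1 lies at 1.39% on the left, under the SR mean of 2.59%, and at 10.7% on the right, beside an SR mean of 10.0%.

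Tags near the transcript start, where the cap is, were compared next. Of the 5′ UTR tags, 42.6%, 42.0%, 58.9% and 76.3% lay within 100 nt of the start in SRSF1 replicates 1 to 4, a mean of 55% ± 16.2 (SD, n = 4), against 38.3% ± 7.06 in the other SR libraries (n = 24). By the exact permutation test this difference passed (p = 0.00371, adjusted p = 0.0297 over 8 comparisons). The call was lost without 1 region. In SRSF1 replicates 3 and 4, the Taf1c region, at 69 nt from the start, took 26.6% and 48.4% of all 5′ UTR tags. Without it the means were 44.6% ± 5.95 for SRSF1 and 38.1% ± 7.04 for the others (exact permutation p = 0.0980, adjusted p = 0.392), an alternative chosen after seeing the data. Without both the Grcc10 and Taf1c regions the means were 46.1% ± 5.45 for SRSF1 and 41.0% ± 8.41 for the others (exact permutation p = 0.256, adjusted p = 0.615). The call was also lost without SRSF1 replicate 3 (adjusted p = 0.194) or replicate 4 (adjusted p = 0.282) in the exact permutation test, and at 50 nt from the start the difference turned round, with 16% for SRSF1 and 17.4% for the others. The remaining 7 comparisons had adjusted p-values of 0.430 to 0.991, and NXF1 had 34.1%, 29.9% and 27.9% near the start, against a mean of 40.7% ± 10.3 over the SR libraries.

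The third comparison asked whether motifs known for these proteins marked their 5′ UTR tags. For SRSF3 the pyrimidine-rich CNTC did. The study itself reports this core (CNUC in RNA) from its SRSF3 iCLIP data, as did earlier work, so the motif is not independent of these libraries. Within the 21 nt centred on the tag, it was present at 63.0%, 56.3% and 56.6% of 5′ UTR tags in SRSF3 libraries, a mean of 58.6% ± 3.74 (SD, n = 3), against 32.8% ± 7.42 (10.8% to 43.8%) in the other 25 SR libraries. All 3 lay above every other SR library, which gives the smallest p that the exact permutation test allows here (two-sided p = 0.000305, adjusted p = 0.000916 over 3 comparisons). The same held within the runs of 2014 (31.3% ± 9.52 in the other 10 libraries, exact permutation p = 0.0035, again the smallest possible) and without the Grcc10 and Taf1c regions (59.1% against 36.7%). NXF1 libraries had 30.1%, 22.8% and 23.2%, and the control pool 14% (95% exact binomial interval 9.15% to 20.05%). As background, 33.6% of 5′ UTR regions had CNTC in the 21 nt at their middle, against 32.2% of all regions.

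For SRSF1 the result on GGA turned on the same 2 regions. GGA, a purine motif, was present at 45.6%, 40.5%, 31.3% and 27.4% of the 5′ UTR tags of SRSF1 replicates 1 to 4, a mean of 36.2% ± 8.36 (n = 4), against 28.5% ± 6.11 in the other SR libraries (n = 24), which missed the threshold in the exact permutation test (p = 0.0371, adjusted p = 0.0557). Without the Grcc10 and Taf1c regions, neither of which has GGA in the 29 nt shown, it was present at 48.5% ± 3.28 of the tags of SRSF1, against 31.7% ± 5.34 in the others. All 4 libraries (45.3% to 53.0%) then lay above the other 24 (18.4% to 39.4%), with the smallest possible exact permutation p of 4.88e-05 and an adjusted p of 0.000147. The call also passed when the libraries labelled SRSF2 replicates 2 and 5, with 35.2% and 33.4%, were left out (adjusted p = 0.0425, exact permutation test), and without SRSF1 replicate 3 (0.0431) or replicate 4 (0.0154), SRSF2 replicate 2 or 3 (0.0466 each), SRSF6 replicate 1, 2 or 3 (0.0472, 0.0498 and 0.0468) or SRSF7 replicate 2 (0.0399). In 5′ UTR regions GGA was present in 38.9% of the middle 21 nt, against 27.1% over all regions.

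GAC, given for SRSF7, did not set it apart. The 6 SRSF7 libraries had 11.8% to 27.7% with a median of 24.2%, and their mean of 22.2% ± 6.15 (SD, n = 6) compares with 20.5% ± 4.07 in the other SR libraries (n = 22, exact permutation p = 0.438, adjusted p = 0.438). Among the libraries with at least 50000 listed tags, the means were 26.9% and 21.1% (exact permutation test, adjusted p = 0.00584). The 3 SRSF7 libraries with fewer tags than that had 11.8%, 22.1% and 18.5%.

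**Figure D3:**
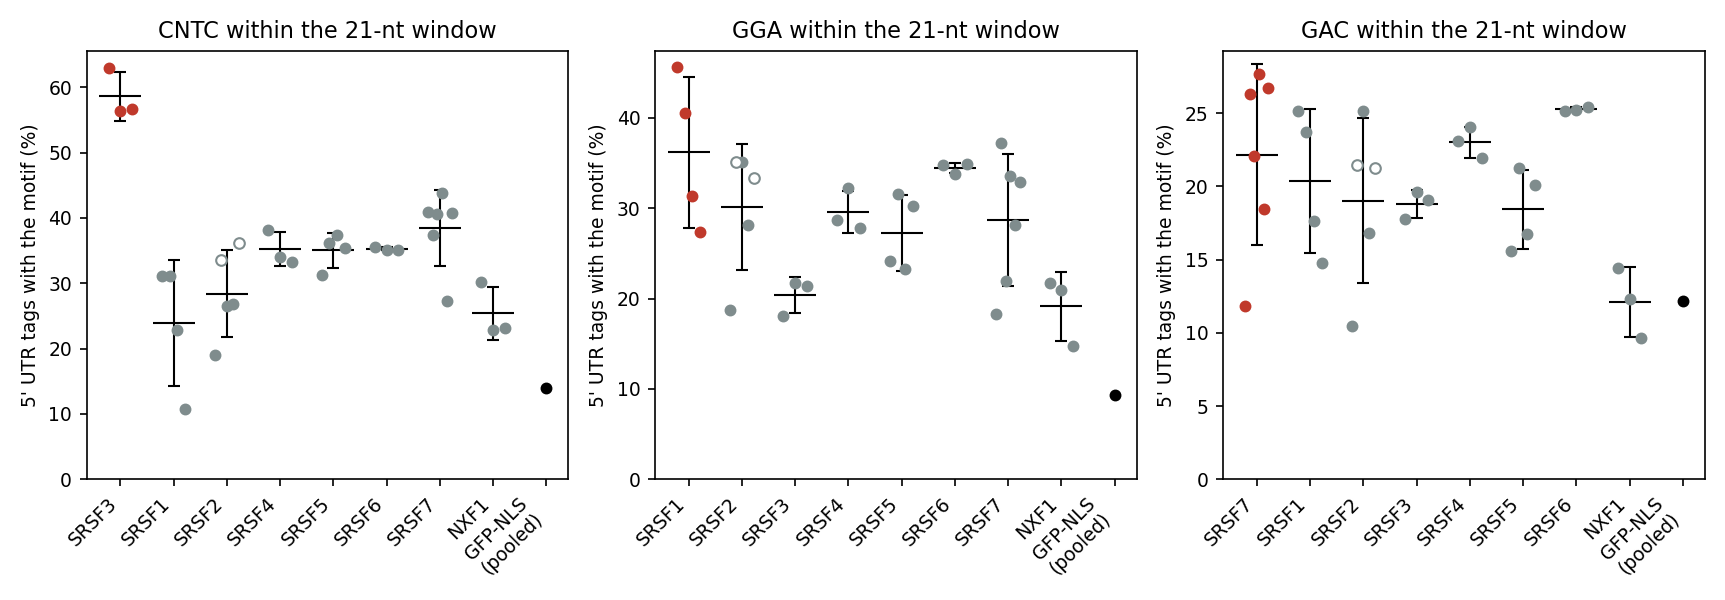
Percent of 5′ UTR tags with CNTC, GGA or GAC in the 21 nt centred on the tag, for each library (points), with mean and SD of each protein as bars, the protein that the motif was tested for on the left in red. Open circles are the libraries labelled SRSF2 replicates 2 and 5, and the black point is the pooled GFP-NLS control. The 3 SRSF3 libraries lie at 56.3% to 63.0% for CNTC, above all other SR libraries (at most 43.8%).

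Single regions were then compared with limma across all 388969 regions. A region was tested when it held 15 tags or more and reached 42.1 CPM in no fewer than 3 libraries. Of the 12753 regions in 5′ UTRs, 255 (2.0%) passed, beside 6649 of all regions, and they held 37.7% of the 5′ UTR tags. Because a region could pass through 1 protein alone, the counts of calls describe these 255 and not 5′ UTRs at large. A call is an adjusted p under 0.05 over the 6649, and the change is the difference of mean log2 CPM of the protein from the mean of the other SR proteins, each with equal weight.

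SRSF3 had the most calls among the 255. It was higher in 87 of the 255 regions (34.1%), against 18.5% of all regions tested, and lower in 31 (12.2%), against 19.9%. Both the excess and the tilt to higher depended on the CPM minimum, which the 3 SRSF3 libraries alone can meet. Without it, 258 regions were higher and 251 lower of 5343 tested, 9.53% in all, against 9.13% of all regions. The median log2 change was 0.73 over the 255, against -0.23 over all tested. For SRSF1, 21 regions were higher (8.24%, all regions 10.4%) and 24 lower (9.41%, all regions 6.83%). For SRSF2, 7 were higher (2.75%, all regions 1.65%) and 8 lower (3.14%, all regions 5.2%). For SRSF4, 10 were higher (3.92%, all regions 9.2%) and 2 lower (0.78%, all regions 0.887%). In the last 3 proteins the shares of regions lay closer, in percentage points, to those of all regions than for SRSF3.

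SRSF5 was higher in 6 regions (2.35%, all regions 10.4%) and lower in 26 (10.2%, all regions 23.0%). SRSF6 was higher in 7 (2.75%, all regions 19%) and lower in 17 (6.67%, all regions 5.14%), and SRSF7 was higher in 20 (7.84%, all regions 7.28%) and lower in 3 (1.18%, all regions 4.48%). NXF1, set against the 7 SR proteins together, was higher in 5 (1.96%, all regions 10.1%) and lower in 3 (1.18%, all regions 1.64%). This balance turned round for NXF1 with 4 higher and 21 lower among libraries of at least 50000 tags, 1 and 14 in the runs of 2014, 3 and 14 with the CPM minimum in 6 libraries, and 4 and 6 with the replicate number as a block. Calls for higher NXF1, SRSF4, SRSF5 and SRSF6, and to a lesser degree SRSF1, were thus a smaller share in 5′ UTRs than among all regions. This difference was not tested. In both directions together, 8 regions were called for NXF1, 45 for SRSF1, 15 for SRSF2, 118 for SRSF3, 12 for SRSF4, 32 for SRSF5, 24 for SRSF6 and 23 for SRSF7. Among all regions the shares called were 11.7% for NXF1, 17.2% for SRSF1, 6.86% for SRSF2, 38.4% for SRSF3, 10.1% for SRSF4, 33.4% for SRSF5, 24.2% for SRSF6 and 11.8% for SRSF7.

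The split into higher and lower moved with the scaling of the libraries. With totals over protein-coding genes as library sizes, the counts of higher and lower regions were 71 and 55 for SRSF3, 41 and 18 for SRSF5, 6 and 49 for SRSF6, 22 and 9 for SRSF2, 14 and 6 for SRSF4, 18 and 6 for SRSF7, 10 and 2 for NXF1 and 33 and 35 for SRSF1. With trimmed-mean scaling they were 96 and 7 for SRSF3, 3 and 15 for SRSF5, 8 and 6 for SRSF6, 1 and 3 for SRSF2, 3 and 2 for SRSF4, 4 and 0 for SRSF7, 3 and 0 for NXF1 and 7 and 6 for SRSF1. More SRSF3 regions were higher than lower under each. Other settings turned the balance of SRSF1 to 14 higher and 4 lower and that of SRSF6 to 15 and 12 (libraries of at least 50000 tags), and that of SRSF1 to 21 and 13 with the replicate number as a block. Leaving out 1 library moved several counts: 47, 56 and 54 regions were called for SRSF3 without its replicates 1, 2 and 3, against 118, 15 and 18 for SRSF1 without its replicates 1 and 2, against 45, and 2, 6 and 2 for SRSF4 without its replicates 1, 2 and 3, against 12. There were 10 for SRSF5 without its replicate 2, against 32, 14, 8 and 14 for SRSF6 without its replicates 1, 2 and 3, against 24, and 8 and 15 for SRSF7 without its replicate 6 or SRSF6 replicate 2, against 23. Over all 6649 regions the median log2 change of SRSF3 was -0.23, and -0.69 and 0.50 under these 2 scalings. That of NXF1 was -1.03, and -0.24 and -0.96. With limma-trend on log2(CPM + 1) in place of voom, 35 of the 118 SRSF3 calls in 5′ UTRs were kept, 3 of 45 for SRSF1, 2 each for SRSF4, SRSF6 and SRSF7, and 0 for NXF1, SRSF2 and SRSF5. At an unadjusted p under 0.05, limma-trend gave 59 regions for NXF1, 11 for SRSF2 and 21 for SRSF5, against 56, 50 and 63 with voom.

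**Figure D4:**
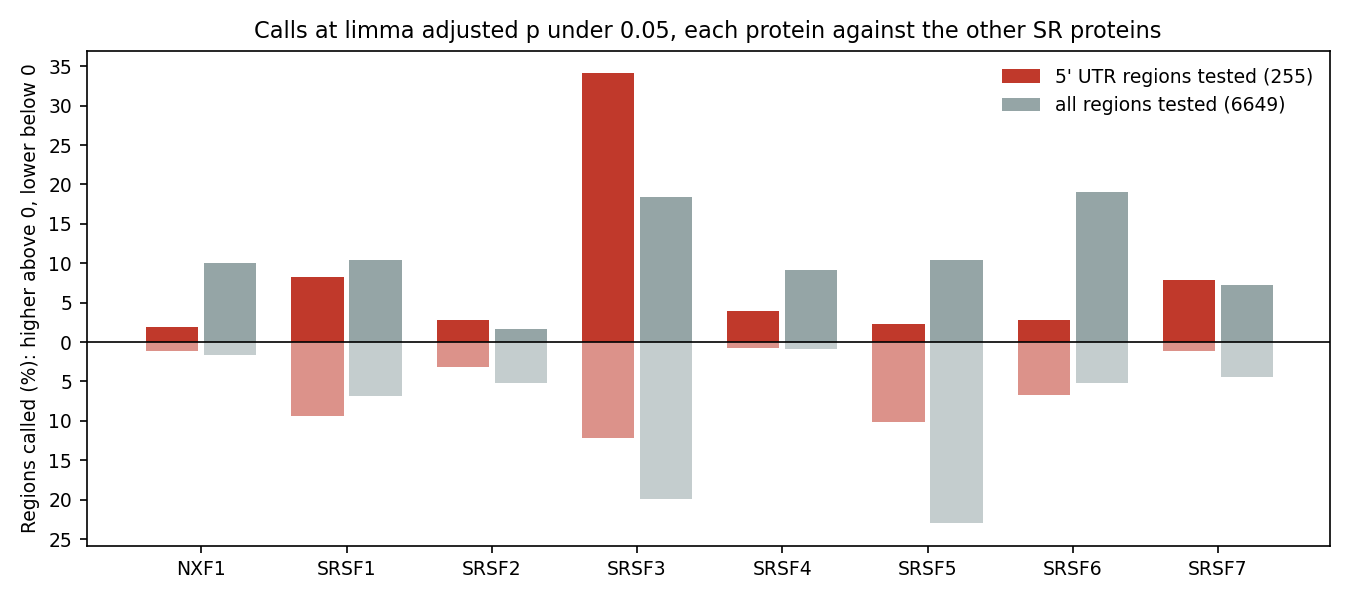
Percent of tested regions called higher (above 0, dark) or lower (below 0, pale) at a limma adjusted p under 0.05, for 5′ UTR regions (red, 255 tested) and all regions (grey, 6649 tested). NXF1 was compared with the averaged SR proteins, all 7 of them, and an SR protein with the remaining 6. SRSF3 has 34.1% of 5′ UTR regions called higher, against 18.5% of all regions.

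Where SRSF3 was higher, CNTC was frequent at the strongest position. It was present in the 29 nt around it in 71 of the 87 regions higher with SRSF3 (81.6%) and in 10 of the 31 lower ones (32.3%), against 67.8% of the 255 tested and 49.96% of the 11851 regions with a listed tag. GGA was present in 12 of the 21 regions higher with SRSF1 (57.1%) and in 4 of the 24 lower ones (16.7%), against 38.4% of the 255. GAC was present in 7 of the 20 regions higher with SRSF7, 35.0%, and in 34.1% of the 255. The position with most tags is set mainly by the deepest libraries, so these shares are a description.

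The 2 regions with the smallest adjusted p for higher SRSF3 lay in Gpc4 and Rpl28. Gpc4, which encodes a cell-surface heparan sulphate proteoglycan, had 85.5, 46.0 and 89.3 CPM in SRSF3 libraries. In the other 25 SR libraries it had a median of 0 and at most 12.1 CPM, with no listed tag in 19. Its log2 change was 5.04 ± 0.70 (SE, adjusted p = 4.29e-06). Rpl28, a ribosomal protein gene, had 208, 125 and 109.8 CPM in SRSF3 libraries, against a median of 6.27 CPM and at most 39.0 CPM in the others. Its change was 3.23 ± 0.47 (adjusted p = 6.46e-06). In both genes the groups did not overlap. Among SR libraries, both regions reached the CPM minimum only in those of SRSF3, so the filter itself favoured this separation. Both calls held under every alternative setting in which they were tested and without each library of another protein in turn. None of these settings took out an SRSF3 library. Without any 1 of the SRSF3 libraries both regions fell under the CPM minimum and were not tested.

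The Srsf3 mRNA itself went the other way. Its 5′ UTR region (chr17:29169614-29169720, plus strand) had 2.44, 0 and 0 CPM in the SRSF3 libraries, against a median of 16.2 CPM in the other 25 (0 to 61.2, with 10 at 0). The limma change was -5.85 ± 0.97 (adjusted p = 3.44e-05), and limma-trend gave -2.47 (adjusted p = 0.285). The Ranbp1 region was the other with a small adjusted p for lower SRSF3, at 7.33, 0 and 0 CPM in SRSF3 libraries, against a median of 6.05 CPM in the others (0 to 336, with 9 at 0). Its change was -5.24 ± 0.89 (adjusted p = 4.43e-05), and -2.21 with limma-trend (adjusted p = 0.273). Fitted changes of regions with libraries at 0 depend on the small count that limma adds.

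SRSF3 regions were called in several gene lists, whose counts stand beside the 34.1% higher and 12.2% lower over the 255, and several are near those shares. The counts are descriptions, since a region could pass the CPM minimum through SRSF3 alone. Among SR libraries, Rpl28, Tuba1c and Azin1, for example, reached it only in those of SRSF3. In translation factor genes, 6 of 11 tested regions were higher and 0 lower. Eef1a1, elongation factor 1 alpha, had 1461, 889 and 992 CPM in SRSF3 libraries, against a median of 196 CPM in the others (0 to 2017), a change of 2.56 ± 0.81 (limma adjusted p = 0.0129). Eef2, which moves the ribosome along, had 342, 155 and 212 CPM in SRSF3 libraries, against a median of 41.9 CPM (0 to 209), a change of 2.37 ± 0.62 (adjusted p = 0.00321). The groups overlapped in both, through SRSF7 libraries for Eef1a1. Pabpc1, the cytoplasmic poly(A)-binding protein, had 635, 336 and 381 CPM with SRSF3, above the other libraries (median 89.9 CPM, at most 307), a change of 2.35 ± 0.65 (adjusted p = 0.005). Eef1b2, Eif4g2 and Eif1ax were the other 3 that were higher. With limma-trend 0 of the 11 were called (6 at an unadjusted p under 0.05), and with totals over protein-coding genes 3.

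In tubulin and actin genes, 4 of 9 regions were tested, and all 4 were higher with SRSF3. Tubb5, a beta-tubulin, had 919, 583 and 739.8 CPM in SRSF3 libraries, against a median of 117 CPM in the others (0 to 678). Its change was 2.98 ± 0.95 (limma adjusted p = 0.0131). Tuba1c, an alpha-tubulin, had 90.4, 42.3 and 57.5 CPM with SRSF3 and at most 29.9 CPM in the others, and Tuba1a had 142, 52.0 and 61.0 CPM against 0 to 70.2 CPM. The Actb region had 308, 162 and 213 CPM with SRSF3, against a median of 54.0 CPM (0 to 327). Only Tuba1c had groups that did not overlap. Limma-trend and the coding totals each called 2 of the 4.

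Both tested regions of ferritin mRNAs, which carry the iron-responsive element, were higher with SRSF3. Ftl1, the light chain, had 349, 236 and 251 CPM in SRSF3 libraries, against a median of 25.6 CPM in the others (0 to 279), a change of 2.88 ± 0.79 (limma adjusted p = 0.00462). Fth1, the heavy chain, had 156, 75.3 and 81.1 CPM in SRSF3 libraries, against a median of 0 (0 to 96.1), a change of 3.41 ± 0.59 (adjusted p = 5.41e-05). Limma-trend called 1 of the 2. Whether the tags lie on the iron-responsive element was not tested. The strongest position of the Fth1 region lay outside the exons of its representative transcript.

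Ribosomal protein genes had regions in 56 of 81 genes with a 5′ UTR model, of which 11 were tested. Of these, Rpl28, Rps24 and Rpl32 were higher with SRSF3 and 0 were lower (2 with totals over protein-coding genes), while the median change of the 11 was -0.29. Rpl32 had 198, 78.0 and 79.5 CPM in SRSF3 libraries, against a median of 6.31 CPM in the others (0 to 70.2), and Rps24 had 173, 93.8 and 71.3 CPM, against 8.53 CPM (0 to 70.2). In both, every SRSF3 library lay above the others. The list's median changed sign with the scaling, to 0.48 with trimmed means. Among other lists, 3 of 9 hnRNP regions were higher with SRSF3 (Hnrnpk, Pcbp2 and Hnrnpf), 1 of 2 in genes with upstream open reading frame control (Azin1, an antizyme inhibitor, at 125, 56.2 and 90.8 CPM with SRSF3 and at most 25.9 CPM in the others) and 2 of 4 in histone genes (Hist1h1b and Hist1h2ae). Hist1h2bc was lower. Histone genes have near-identical copies, so their values are uncertain. The SR protein genes had 2 of 5 lower, in Srsf3 and Srsf4.

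For SRSF1, the Taf1c region was the most extreme. Taf1c encodes a subunit of the factor SL1, which starts transcription by RNA polymerase I. This region of 5 nt (chr8:122129052-122129056, minus strand) had 227, 1117, 5165 and 7248 CPM in SRSF1 replicates 1 to 4, from 160, 275, 449 and 108 tags. In the other 24 SR libraries its median was 0.34 CPM and its highest value 499 CPM, so that the groups overlapped only through SRSF4 (499, 83.7 and 483 CPM) and SRSF7 replicate 5 (242 CPM). The change was 8.80 ± 0.90 (limma adjusted p = 8.13e-08). The SRSF1 libraries with fewer listed tags had the higher CPM. NXF1 libraries had 63.2, 71.2 and 248 CPM, and the control pool had 3 tags.

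Ranbp1, a cofactor of the Ran GTPase in nuclear transport, was also higher with SRSF1, at 91.0, 85.3, 34.5 and 336 CPM, against a median of 2.58 CPM in the others (0 to 46.2). The change was 3.68 ± 0.56 (limma adjusted p = 4.61e-05). The calls of Taf1c and Ranbp1 held without each library and under every alternative in which they were tested. Lower with SRSF1 were Fth1, which was at 0 in all 4 libraries against a median of 7.24 CPM, and Ywhag, a 14-3-3 protein, at 11.4, 0, 34.5 and 0 CPM against a median of 27.4 CPM (0 to 178). Their limma adjusted p-values were 0.00279 and 0.0113. The Fth1 call was lost without SRSF1 replicate 1 (adjusted p = 0.160) and the Ywhag call without replicate 2 (change -0.89, adjusted p = 0.484), and both with limma-trend (0.168 and 0.461). Of the translation factor genes, Eif5a was higher with SRSF1 at 152, 129.9, 104 and 134 CPM, against a median of 15.8 CPM (0 to 223), Pabpc1 was lower, and the median change of the 11 tested regions was -0.46. A second Eif5a region, with a mean of 83.1 CPM, was not called.

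In the SRSF4 line, the 5′ UTR of Srsf4 itself was the leading region. Its first part (chr4:131441126-131441719, plus strand) had 46.2, 152 and 144 CPM in SRSF4 libraries, against a median of 0 and at most 12.1 CPM in the other 25 SR libraries. The second (chr4:131441757-131442207) had 46.2, 148 and 132 CPM, against a median of 0 and at most 14.3 CPM. The changes were 4.95 ± 0.61 (limma adjusted p = 2.84e-06) and 4.27 ± 0.63 (4.73e-05). Both regions reached the CPM minimum only in SRSF4 libraries, so the filter itself favoured this separation. Both calls held under every alternative in which they were tested and without each library of another protein, settings that kept all SRSF4 libraries. Without any 1 of the SRSF4 libraries both regions fell under the CPM minimum and were not tested. The tagged gene adds Srsf4 transcripts in this line, and its transcripts and the endogenous ones cannot be told apart. The 5′ UTR of Nxf1 had 16.84, 35.6 and 0 CPM in the NXF1 line, against a median of 0 and at most 16.76 CPM in the other 28 libraries, so 2 of its 3 libraries lay above all others. That of Srsf1 averaged 55.9 CPM in the SRSF1 line, against 66.4 CPM in the other 27 libraries, that of Srsf5 had 0 in all 4 SRSF5 libraries, against a mean of 1.21 CPM, and that of Srsf6 averaged 8.23 CPM in the SRSF6 line, against 5.42 CPM. The Srsf1 region was placed by its midpoint, and whether its tags lie ahead of the start codon was not tested. The SRSF3 line had the low Srsf3 values above. Lower with SRSF4 were Rps9, a ribosomal protein gene, and Hnrnpf, both at 0 in all 3 libraries, against medians of 5.69 and 8.18 CPM in the others, with limma adjusted p-values of 0.00344 and 0.0114. Both were lost without SRSF4 replicate 2 (0.534 and 0.619), Hnrnpf also without replicate 1 (0.0662) or 3 (0.0709), and both with limma-trend (0.498 and 0.450).

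SRSF7 had its smallest limma adjusted p in Gemin6, a subunit of the SMN complex that assembles spliceosomal snRNPs. The region (chr17:80623800-80624073, plus strand) had 0, 0, 281, 155, 0 and 205 CPM in SRSF7 replicates 1 to 6. Of the other 22 SR libraries, 19 had no listed tag, 2 of SRSF2 had 3.23 and 2.79 CPM, and SRSF1 replicate 4 had 336 CPM. The change was 6.29 ± 0.76 (limma adjusted p = 5.61e-07). The call held without each library and under the 7 alternatives in which the region was tested. Cnot7, a deadenylase of the CCR4-NOT complex, had 230.1, 54.6, 70.2, 65.7, 0 and 119 CPM with SRSF7, against a median of 6.85 CPM and at most 22.8 CPM in the others. Its change was 2.77 ± 0.46 (adjusted p = 0.000142), and it was lost with limma-trend (adjusted p = 0.0717).

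Lower with SRSF7 were Atg4c, an autophagy protease at 0 in all 6 libraries against a median of 3.13 CPM (0 to 403), and Taf15, an RNA-binding protein of the FET family, with 0 to 54.6 CPM against a median of 60.8 CPM (0 to 156). The limma adjusted p-values were 0.0269 and 0.0285. Atg4c was lost without SRSF7 replicate 4 (0.581) or 6 (0.242) and with the replicate number as a block (0.705), and Taf15 without replicate 4 (0.532). The highest Atg4c values, 17.1, 118, 219 and 403 CPM, were those of SRSF1, for which the region was called higher (5.37 ± 0.83, adjusted p = 6.59e-05).

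SRSF2 calls leaned on the libraries labelled SRSF2 replicates 2 and 5. Tbp, the TATA-binding protein, had 93.3, 85.6, 0, 94.6 and 66.6 CPM with SRSF2, against a median of 11.8 CPM in the others (0 to 104), a change of 2.13 ± 0.51 (limma adjusted p = 0.00738). Rps9 had 0, 77.6, 0, 16.7 and 47.0 CPM, against 3.08 CPM (0 to 72.8), a change of 2.31 ± 0.54 (adjusted p = 0.0066). Atp5g3, an ATP synthase subunit, and Gpc4 were at 0 in all 5 libraries, against medians of 34.8 and 0 CPM in the other 23, with adjusted p-values of 6.07e-05 and 0.00427. Without both doubted libraries, the adjusted p was 0.187 for Tbp and 0.446 for Atp5g3, and the Gpc4 change turned to 0.24, and 1 region was called for SRSF2 in 5′ UTRs, against 15 with all libraries. Without replicate 2 alone there were 2 and without replicate 5 alone 7. Tbp was lost without replicate 2 (0.0672), Rps9 without replicate 2 (0.130) or 5 (0.0644), and Gpc4 likewise (0.192 and 0.191).

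SRSF5 was higher in H3f3b, a gene of the replacement histone H3.3, and in Dhx9, an RNA helicase. H3f3b had 264, 147, 145 and 108 CPM with SRSF5, against a median of 19.5 CPM in the others (0 to 145), a change of 2.69 ± 0.61 (limma adjusted p = 0.00182). Dhx9 had 56.1, 87.6, 65.9 and 75.8 CPM with SRSF5, against a median of 14.6 CPM (0 to 79.6), a change of 1.79 ± 0.45 (adjusted p = 0.00392). The highest other value in both came from an SRSF2 library. Lower with SRSF5 were Anp32e, a chaperone of histone H2A.Z, at 0, 1.59, 0 and 7.97 CPM against a median of 45.5 CPM (0 to 119, adjusted p = 0.00118), and Zdhhc5, a palmitoyltransferase, at 0 in all 4 libraries against 8.93 CPM (0 to 83.1, adjusted p = 0.00164). All 4 calls were kept without each library and lost with limma-trend (0.109 to 0.128).

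SRSF6 was higher in Rragb, a Rag GTPase of the amino acid pathway to mTORC1, and in Car14, a carbonic anhydrase. Rragb had 43.0, 54.5 and 40.1 CPM with SRSF6, against a median of 2.44 CPM in the others (0 to 70.2), a change of 2.82 ± 0.53 (limma adjusted p = 0.000212). Car14 had 80.5, 120.3 and 77.4 CPM with SRSF6, against a median of 0 (0 to 192), a change of 2.88 ± 0.65 (adjusted p = 0.00142). For both, libraries of SRSF7 lay in or above the SRSF6 range, and SRSF7 was itself called higher (adjusted p = 0.002 and 0.00979). Lower with SRSF6 were Cyr61, a secreted matricellular protein, at 0, 0 and 1.89 CPM against a median of 0 (0 to 81.6, adjusted p = 0.000471), and Ctsl, the protease cathepsin L, at 5.60, 0 and 6.14 CPM against 9.78 CPM (0 to 46.8, adjusted p = 0.00174). Ctsl was lost without SRSF6 replicate 2 (0.147), and limma-trend lost all 4 (0.0536 to 0.687). The strongest position of the Cyr61 region lay inside the CDS.

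NXF1 had 8 called regions. The clearest was in Ddx39b, which encodes the RNA helicase UAP56 of mRNA splicing and export and was the only one of 5 tested regions of mRNA export genes that was called. It had 291, 370.5 and 276 CPM in NXF1 libraries, against a median of 21 CPM in the 28 SR libraries (0 to 119, with 9 at 0). The groups did not overlap, and the change was 3.49 ± 0.60 (limma adjusted p = 0.000141). The call held without each library and was lost only with limma-trend (4.54, adjusted p = 0.110). This region (chr17:35379600-35379673, plus strand) shares 51 nt with the annotated small nucleolar RNA gene SNORD83, and tags of the 2 RNAs cannot be told apart there. Its strongest position lay directly upstream of the annotated start of SNORD83 (chr17:35379623). The next Ddx39b region, downstream and free of that gene, had 0 in all 3 NXF1 libraries. The strongest positions of these regions lay 807 and 1548 nt from the start of the representative transcript. Whether other Ddx39b transcripts hold these stretches as intron or CDS was not tested.

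The other NXF1 calls were less firm. Taf1c, with the values above, was higher by 3.47 ± 0.98 (limma adjusted p = 0.0159), Zfhx3, a transcription factor gene, had 25.3, 21.4 and 36.8 CPM against a median of 0.46 CPM (0 to 121, adjusted p = 0.0128), and Bscl2, the seipin gene, had 29.5, 42.7 and 9.20 CPM against a median of 0 (0 to 54.4, adjusted p = 0.0222). A region of 2410002F23Rik had 92.6, 292 and 27.6 CPM against 22.1 CPM (0 to 70.6, adjusted p = 0.0499) and shares 93 nt with a SNORD88 gene. Lower were Cct4, a chaperonin subunit, at 0, 14.2 and 36.8 CPM against 28.1 CPM (0 to 137, adjusted p = 0.0321), Polr2a, the largest subunit of RNA polymerase II, at 12.6, 21.4 and 27.6 CPM against 56.1 CPM (0 to 166, adjusted p = 0.0385), and Ythdf3, a reader of m6A, at 0 in all 3 against 28.5 CPM (0 to 80.5, adjusted p = 0.0452). In all 7 the groups overlapped. Each was lost with limma-trend (adjusted p = 0.120 to 0.605) and without at least 1 NXF1 library. The limma adjusted p was 0.127 for Bscl2 without replicate 1, 0.0546 and 0.159 for Taf1c without replicate 2 or 3, 0.0530, 0.0540 and 0.0846 for Zfhx3 without replicate 1, 2 or 3, and 0.176 and 0.368 for 2410002F23Rik without replicate 1 or 2. It was 0.630, 0.0718 and 0.121 for Cct4, 0.30, 0.115 and 0.0745 for Polr2a and 0.30, 0.173 and 0.158 for Ythdf3, without replicates 1, 2 and 3 in turn. Leaving out single SR libraries also ended the calls of Polr2a (SRSF6 replicate 1, 0.0538), of Ythdf3 (each SRSF3 and SRSF6 library, 0.0514 to 0.0602) and of 2410002F23Rik (0.0501 to 0.0615). Within the runs of 2014 the Taf1c change was 1.03 (adjusted p = 0.390), and without the libraries labelled SRSF2 replicates 2 and 5 it was 2.71 (0.0539). Without NXF1 replicate 1, 2 or 3 in turn, 2, 3 and 3 regions were called, and without SRSF6 replicate 1, 5.

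**Figure D5:**
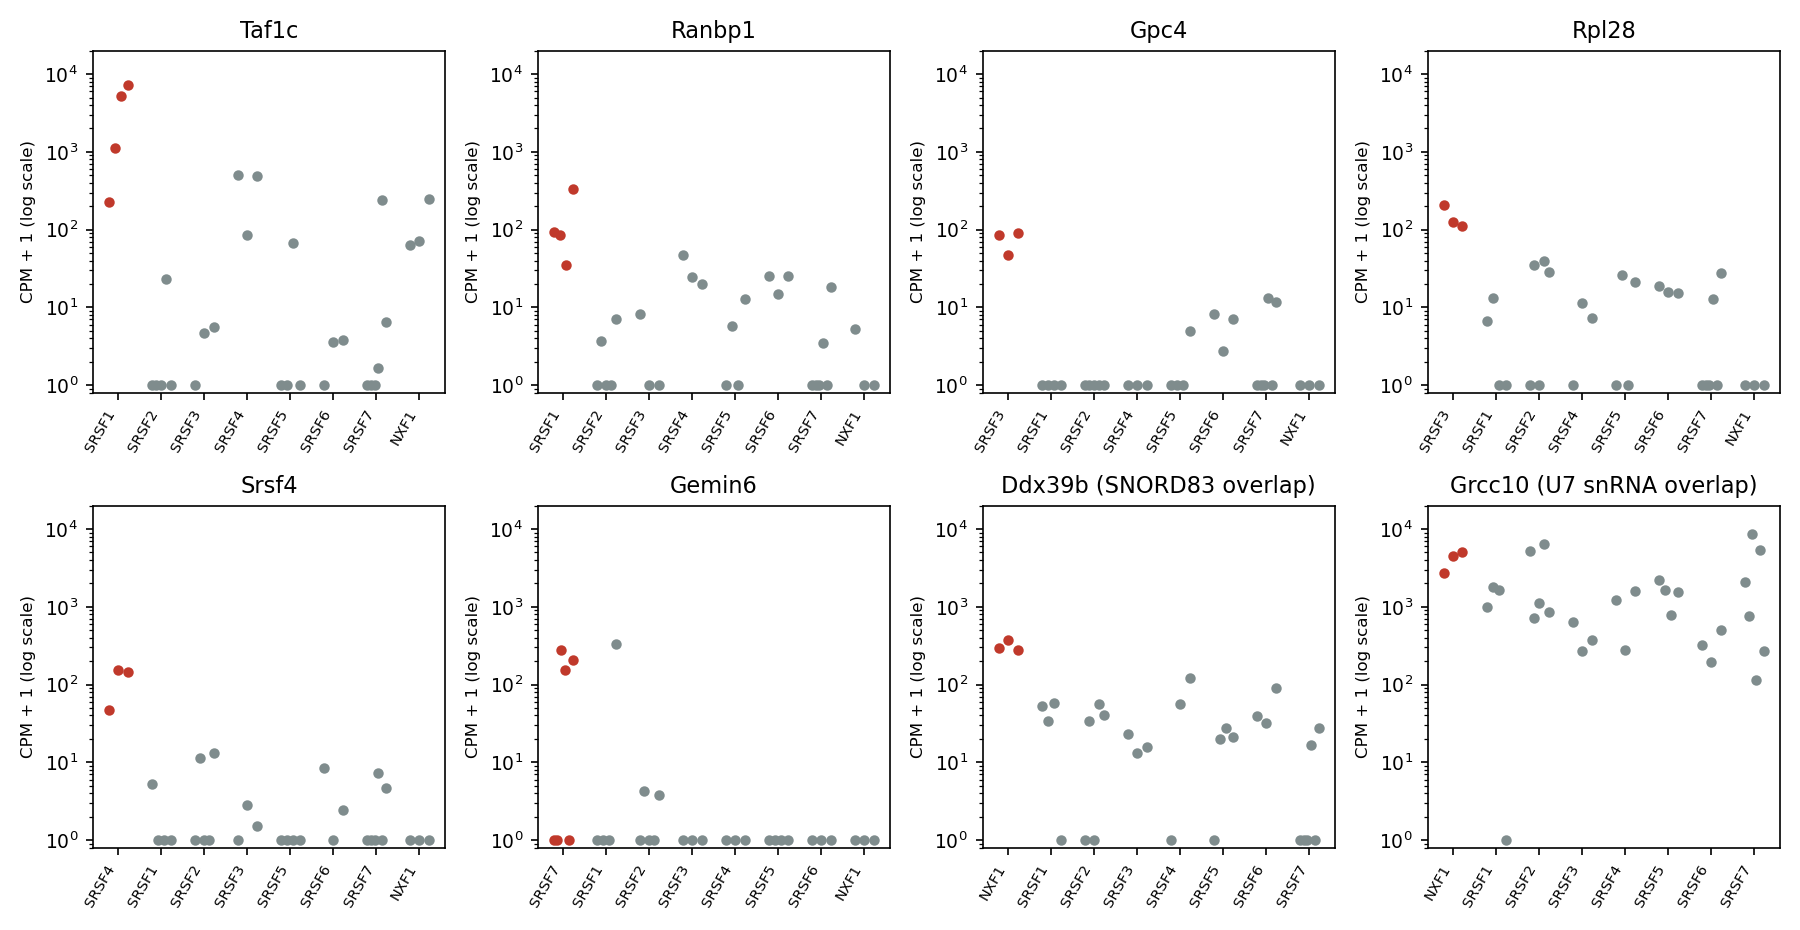
CPM + 1 on a log scale for each library (points) in 8 named 5′ UTR regions, the first of the 2 regions standing for Srsf4. The protein set against the others is on the left in red. Taf1c reaches 7248 CPM with SRSF1, Ddx39b lies at 276 to 370.5 CPM with NXF1 and at most 119 CPM elsewhere, and points at 1 are libraries with no listed tag.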

How the data were processed

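Libraries of 8 GFP-tagged proteins and a pooled GFP-NLS control were analysed. The deposited files list, for each position, a signed whole-number count of unique cDNAs that the authors kept where it passed their threshold for significant cross-linking, with the sign giving the strand. Counts at other positions were not used here. By the processing notes of the submitters, CASAVA 1.4 was run and the build was mm9. No aligner is given in the sources used here. Cluster files, which the authors made from several libraries or from 1, gave the regions.

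Clusters were merged within 30 nt in Python, and midpoints were placed in GENCODE vM1 models with bedtools 2.31.1. Tags were summed per region and library with Python 3.11.15, numpy 2.4.6 and pandas 2.3.3, and scaled to all listed tags of the library. Regions with at least 42.1 CPM (10 tags in the median library of 237488) in 3 libraries and 15 tags in all were tested with voom and limma 3.58.1 (R 4.3.3), with no replicate block, and p-values were adjusted by the Benjamini-Hochberg method over all regions tested. Shares were compared between libraries by two-sided exact permutation tests. The limma fit was tested on simulated data. Libraries held 13038 to 4459523 tags, which limits the precision of the shallow ones most, and binomial intervals at 95% cover counting error only.

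The text names the 10 members with the highest mean CPM, up to 6 per direction for NXF1 and 2 per direction for each SR protein by smallest adjusted p, the strongest member of each gene list that it describes, and called list members. Members and lists were chosen with earlier results of these data known. Alternatives changed the scaling, the filter, the tool, the libraries, the block, the merging gap, the distance from the start and the weight of a position. Per-sample columns not used numbered 0. The called regions of 1 gene list are not reported here.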

Additional observations from a re-analysis of the deposited data

Results flagged for a closer look

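Among 75 groups of 4 to 6 libraries examined, 3 held a library far from the others, and chance alone sets apart about 1 in 20 groups. All 3 concerned the Taf1c region. In SRSF7 replicate 5 it had 242 CPM, while the other SRSF7 libraries had far less and the median of the 6 was 0.34 CPM. In SRSF5 replicate 3 it had 65.9 CPM, against 0 in the other SRSF5 libraries. In SRSF2 replicate 4 it had 22.3 CPM, against 0 in the other SRSF2 libraries.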

How the results depend on the processing

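Calls changed most with the filter and the tool. Called 5′ UTR regions for NXF1 and SRSF1 to SRSF7 in that order were 3, 13, 4, 103, 5, 18, 14 and 4 with trimmed-mean scaling, 12, 68, 31, 126, 20, 59, 55 and 24 with totals over protein-coding genes, 0, 3, 0, 35, 2, 0, 2 and 4 with limma-trend, 2, 28, 7, 509, 4, 6, 42 and 271 with no CPM minimum, and 17, 15, 4, 56, 4, 19, 11 and 7 with that minimum in 6 libraries. Libraries with at least 50000 tags gave 25 for NXF1 and 18 for SRSF1. Without SRSF2 replicates 2 and 5, 1 was called for SRSF2 and 14 for SRSF7. The runs of 2014 gave 15 for NXF1 and 5 for SRSF7, and those of 2013 gave 1 for SRSF2, 16 for SRSF5 and 1 for SRSF7. Leaving out 1 library gave 2 to 12 for NXF1, 15 to 47 for SRSF1, 2 to 15 for SRSF2, 47 to 124 for SRSF3, 2 to 15 for SRSF4, 10 to 38 for SRSF5, 8 to 28 for SRSF6 and 8 to 25 for SRSF7. With the replicate number as a block, 2 were called for SRSF2 and 4 for SRSF7, and no other count moved by over 1.5 times. The numbers do not pair the samples: deviations of libraries with the same number correlated at a mean of 0.017 (91 pairs), against -0.0024 for different numbers (325 pairs), and 4 libraries were closest to their own number. The difference in 5′ UTR share, in percentage points, changed with exon totals to 0.64 for NXF1, 1.42 for SRSF1, -1.71 for SRSF3, 4.43 for SRSF5 and -0.41 for SRSF7, and with coding totals to 0.27 for SRSF1, 0.13 for SRSF5 and -0.020 for SRSF7. It was -0.55 for SRSF2 without its replicates 2 and 5, 0.22 for SRSF6 and -0.21 for SRSF7 in 2013, and 0.11 for SRSF6 without the Grcc10 and Taf1c regions. Without 1 library it was -0.54 to 0.14 for SRSF1, -0.15 to 0.59 for SRSF2, 1.32 to 2.01 for SRSF3, -0.24 to 0.093 for SRSF6 and -0.38 to 0.56 for SRSF7. The difference in tags near the start was, for SRSF1, 8.45 with at least 50000 tags, 5.08 without the 2 regions, 6.43 without Taf1c alone, -1.40 at 50 nt and 7.56 with each position counted once. It was -3.48 for SRSF2 without its replicates 2 and 5, 0.75 for SRSF3 and 0.086 for SRSF7 at 50 nt, and 1.48 for SRSF7 without the 2 regions. For SRSF5 it was 0.35 without Taf1c alone, 1.31 in 2013, 2.07 without the 2 regions, 1.92 at 50 nt and 1.80 with each position once. Without 1 library it was 9.52 to 20.9 for SRSF1, -2.89 to 3.91 for SRSF2 and -3.67 to 0.25 for SRSF5. The GGA difference for SRSF1 was 8.18 without SRSF2 replicates 2 and 5, 9.53 with at least 50000 tags, 16.8 without the 2 regions, 17.0 with each position once and 4.52 to 10.6 without 1 library, and the GAC difference for SRSF7 was 5.80 with at least 50000 tags and -0.32 in 2013. Of 36 named calls, 7 were kept under every alternative in which they were tested, 28 were lost with limma-trend and 5 with the block. Gpc4 for SRSF2 turned to 0.24 (limma adjusted p = 0.929) without SRSF2 replicates 2 and 5. The cause of these changes was not tested. The exon totals, the lane, the run years for the shares and the removal of the 2 regions or of Taf1c were chosen after seeing the data.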
